A study of Rattus norvegicus with 12 samples.

Results

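Mbp, Erbb3 and Sox10 are 3 glial genes that were followed here in whole testes of rat fetuses at embryonic day 16. They are 3 of the 14217 genes that the array's annotation names, and every probe set annotated to them was taken, 5 of 31099: 3 for Mbp, 1 for Erbb3 and 1 for Sox10. The genes were chosen by the signal difference between lineages that probe sets of Mbp and Erbb3 showed on these same arrays, so the values that separate the lineages are given as a description, without a test.

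The study asked whether exposure of a pregnant rat to vinclozolin, a fungicide with anti-androgenic metabolites, leaves a mark on the testis transcriptome of later generations. The 12 arrays form 6 groups of 2: the F1, F2 and F3 vinclozolin lineages and the F1, F2 and F3 control lineages. Founder females of the vinclozolin lineages were injected intraperitoneally with 100 mg/kg/day on days 8 to 14 of pregnancy, and founders of the control lineages received the vehicle, sesame oil with DMSO. F1 embryos were in the uterus during the injections, and F2 and F3 embryos descend from such animals without further dosing. The protocol text of the F2 and F3 vinclozolin groups says that the mated animals came from different control lines, while their titles name the vinclozolin lineage, and the titles were followed. Each RNA was pooled from about 10 testes of 1 treatment, so the spread between the 2 arrays of a group is a spread between pools. Whether those 2 pools hold different litters is not stated in the labels.

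Schwann cells are the glia of peripheral nerves. They arise from the neural crest through Schwann cell precursors that travel along growing axons. SOX10 is the transcription factor that keeps this lineage in being. ERBB3 is the receptor through which precursors read neuregulin 1 on the axon surface, and because its own kinase is weak it signals in a pair with ERBB2. MBP is the cytoplasmic protein that compacts myelin in Schwann cells and in oligodendrocytes, the myelinating glia of the brain and spinal cord. The Mbp locus also makes longer golli transcripts from an upstream start, and these are found in cells that make no myelin, such as neurons and lymphocytes. ERBB3 is used by many epithelia as well, and SOX10 by melanocytes. Myelin of the rat forms mainly after birth.

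In RefSeq for GRCr8, Mbp spans chr18:78130652-78241174, a gene of 110523 bases with 15 annotated transcripts. Erbb3 lies at chr7:1579079-1600379 with 3 transcripts, and Sox10 at chr7:112605721-112615097 with 1. The array's annotation ties the Mbp probe set 1387341_a_at, the Erbb3 probe set 1369088_at and the Sox10 probe set 1368439_at to a RefSeq mRNA, and the Mbp probe sets 1368810_a_at and 1383479_at to expressed sequence tags. Which Mbp transcripts each probe set reads is not given in the sources used here. RefSeq's promoter table holds 2 starts for Mbp, 79.59 kb apart, and the 250 bases before each are shown because the Mbp probe sets below do not move together and the gene has more than 1 start. Both are on the plus strand, and the second lies inside the span of the gene. Capitals mark ACAAAG or ACAATG, the core that SOX family proteins bind, on either strand (CTTTGT and CATTGT on the other).
Mbp, chr18:78130402-78130651: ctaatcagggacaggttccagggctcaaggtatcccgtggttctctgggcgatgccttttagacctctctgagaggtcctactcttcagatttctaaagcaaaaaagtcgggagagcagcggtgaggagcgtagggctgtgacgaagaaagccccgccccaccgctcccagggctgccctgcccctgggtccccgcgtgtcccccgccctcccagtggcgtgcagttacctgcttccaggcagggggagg
Mbp, chr18:78209995-78210244: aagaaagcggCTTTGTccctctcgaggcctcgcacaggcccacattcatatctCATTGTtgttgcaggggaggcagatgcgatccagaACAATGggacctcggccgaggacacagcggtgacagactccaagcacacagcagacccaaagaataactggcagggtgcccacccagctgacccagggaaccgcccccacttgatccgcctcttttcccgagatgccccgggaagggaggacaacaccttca
The window before the upstream start held 0 of these motifs. The window before the internal start held 3, beginning at bases -240, -197 and -162 from the start. Across RefSeq's table, 8465 of 33469 windows of the same length (25.29%) held at least 1.

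The arrays are those of a fetal testis. Amh, the Sertoli cell hormone that removes the Müllerian ducts, had 2396.6 to 3417.8 signal units on the 6 vinclozolin arrays and 2894.1 to 3230.8 on the 6 control arrays, and Cyp17a1, an androgen-making enzyme of Leydig cells, had 4014.8 to 4697.7 on vinclozolin arrays and 3888.7 to 4109.5 on control arrays. RNA quality differed between lineages: the 5' to 3' signal ratio of beta-actin, which falls when transcripts are shortened, was 0.171 ± 0.030 in F1, 0.233 ± 0.020 in F2 and 0.378 ± 0.025 in F3 of the vinclozolin lineage, and 0.459 ± 0.003 in F1, 0.447 ± 0.034 in F2 and 0.453 ± 0.016 in F3 of the control lineage (SD, n = 2 each). The same ratio of Gapdh was 0.651 to 0.718 in F1 and 0.721 to 0.800 in F2 of the vinclozolin lineage, against 0.978 to 1.02 in F1 and 0.994 to 0.995 in F2 of the control lineage, but in F3 it was 0.970 to 1.02 in vinclozolin and 0.959 to 0.971 in control. The medians over all probe sets were 40.6 to 42.9 on vinclozolin arrays and 44.5 to 47.1 on control arrays, under a scaling that set the same trimmed mean on every array. The probe sets were tested with limma on log2(signal + 16), after leaving out the lowest 30% by mean log2 value, which corresponds to a signal of 14.8 when turned back from that scale, and an adjusted p under 0.05 is a call. Calls covered 5026 of the 21729 tested probe sets in F1, 3118 in F2 and 676 in F3, so lineage differences were spread over much of the array.

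The Mbp probe set 1368810_a_at was higher in the vinclozolin lineage, by far the most in F1. Its signal was 279.5 and 106.4 on the F1 vinclozolin arrays, against 17.3 and 22.8 on the F1 control arrays. It was 32.0 and 34.4 in the F2 vinclozolin group, against 21.3 and 13.4 in the F2 control group. In F3 it was 22.7 and 20.0 in the vinclozolin group, against 10.2 and 14.1 in the control group. Vinclozolin arrays were thus above control arrays within each generation, but the 6 vinclozolin arrays (lowest 20.0) and the 6 control arrays (highest 22.8) overlapped. Of all tested probe sets, 27.8% in F1, 27.6% in F2 and 25.8% in F3 had both vinclozolin arrays above both control arrays. The ratio of mean signals, vinclozolin over control, was 9.62 in F1, 1.91 in F2 and 1.76 in F3. On the log2(signal + 16) scale, which understates the change of dim probe sets, the differences were 2.40, 0.57 and 0.41 (SE 0.29 each). That SE rests on a spread shared by the 6 groups, so it does not measure the spread of the F1 vinclozolin pair, at 8.21 and 6.94. The F1 vinclozolin arrays also stood far from each other, and the F1 difference was 1.77 without vinclozolin replicate 1 and 3.04 without vinclozolin replicate 2. The F1 vinclozolin arrays also had the lowest beta-actin 5' to 3' ratios, whose part in this difference was not tested. In a bulk tissue, fewer cells of a type and less RNA per cell cannot be told apart, and the same holds for more of either.

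The second Mbp probe set, 1383479_at, did not share this pattern. Its signal was 64.4 and 37.2 on the F1 vinclozolin arrays, against 64.3 and 76.4 on the F1 control arrays. F2 gave 55.6 and 55.6 in the vinclozolin group against 76.2 and 65.0 in the control group, and F3 gave 57.5 and 62.9 in the vinclozolin group against 63.9 and 82.1 in the control group. Vinclozolin arrays lay below control arrays in F2 and F3, as did 30.4% and 29.7% of all tested probe sets, and overlapped them in F1 (30.6% of all lay apart downwards there). The log2 differences were -0.40, -0.27 and -0.22 (SE 0.18 each). The gap between the log2 differences of the 2 probe sets was therefore 2.80 in F1, 0.84 in F2 and 0.63 in F3.

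The remaining Mbp probe set, 1387341_a_at, was dim and lay below the filter. It had 18.5 and 8.5 in F1 vinclozolin against 16.3 and 15.6 in F1 control, 4.8 and 17.7 in F2 vinclozolin against 7.0 and 13.5 in F2 control, and 10.4 and 16.3 in F3 vinclozolin against 7.4 and 8.4 in F3 control. The groups overlapped in F1 and F2. In F3 vinclozolin arrays lay above control arrays, as did 25.8% of all tested probe sets. The log2 differences were -0.14, 0.02 and 0.29. On F1 vinclozolin replicate 1, where 1368810_a_at read 279.5, this probe set read 18.5. A gene-level statement that Mbp was higher in the F1 vinclozolin testis therefore rests on 1 of its 3 probe sets.

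**Figure D1:**
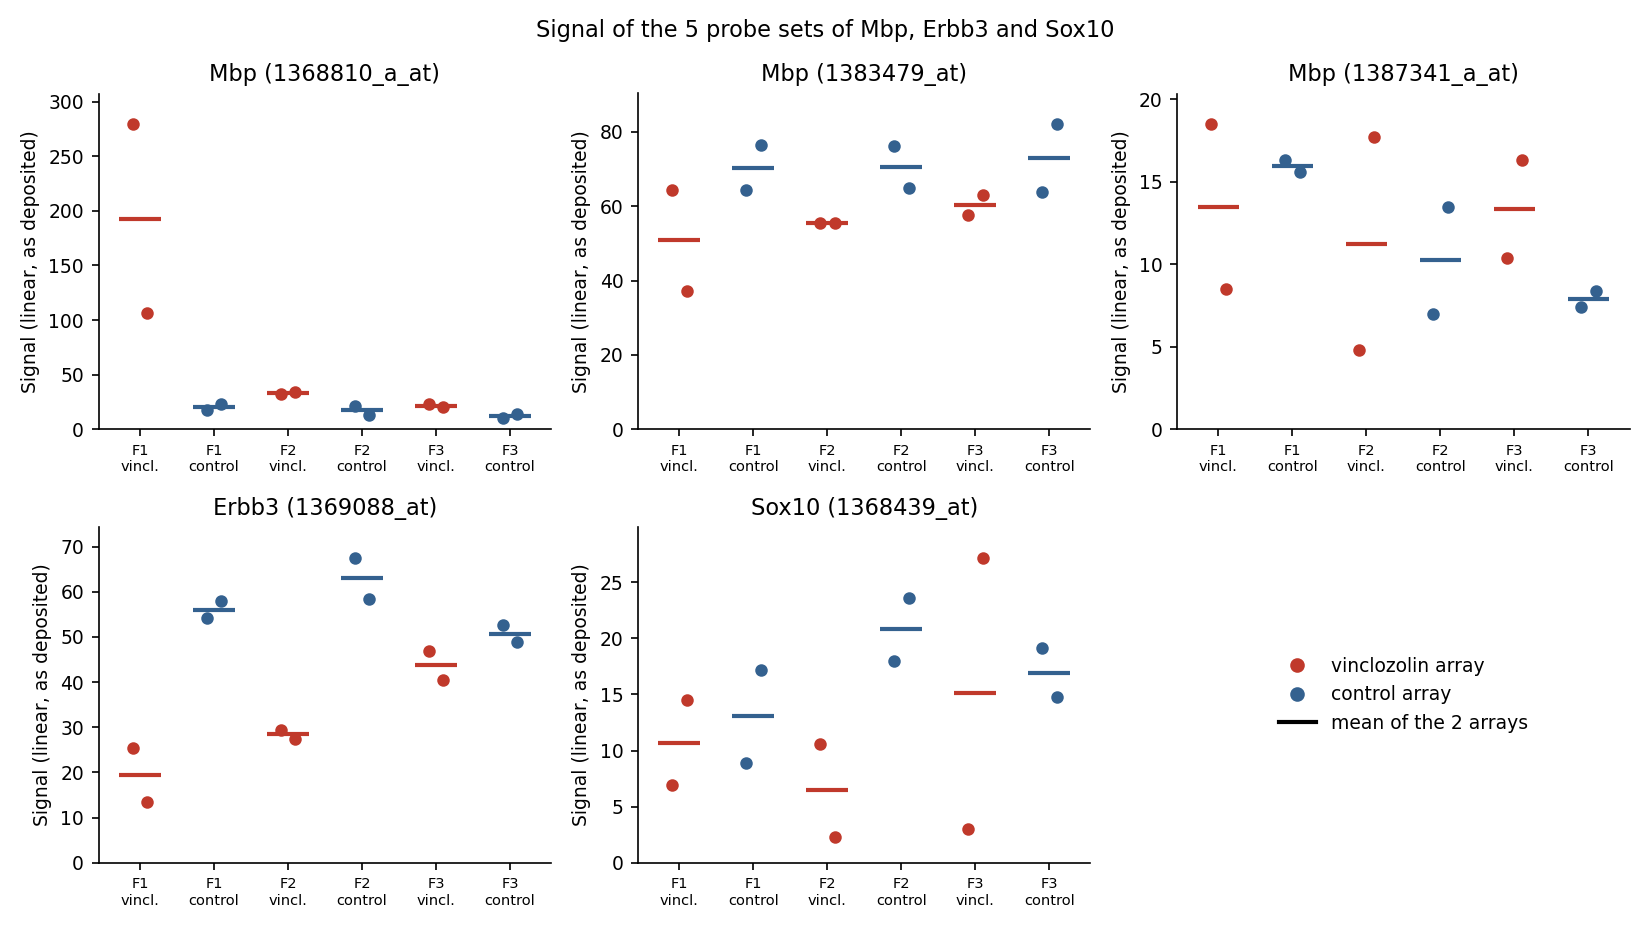
Signal (linear axis from 0, as deposited) of the 5 probe sets of Mbp, Erbb3 and Sox10 on each array, with vinclozolin arrays left of control arrays in the F1, F2 and F3 generations; each point is 1 array and each bar a group mean. Mbp 1368810_a_at reaches 279.5 and 106.4 on the F1 vinclozolin arrays while the other Mbp probe sets do not, and all 6 vinclozolin arrays lie below all 6 control arrays for Erbb3.

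Erbb3, the neuregulin receptor, was lower in the vinclozolin lineage. Probe set 1369088_at had 25.4 and 13.5 on the F1 vinclozolin arrays, against 54.1 and 58.0 on the F1 control arrays. It had 29.4 and 27.5 in F2 vinclozolin against 67.6 and 58.4 in F2 control, and 46.9 and 40.5 in F3 vinclozolin against 52.6 and 48.9 in F3 control. No vinclozolin array reached a control array: the 6 vinclozolin arrays spanned 13.5 to 46.9 and the 6 control arrays 48.9 to 67.6. Such a separation, with the vinclozolin lineage lower, was held by 7.73% of all tested probe sets. The log2 differences were -1.04, -0.83 and -0.16 (SE 0.18 each), and the ratio of mean signals, control over vinclozolin, was 2.88, 2.21 and 1.16 in F1, F2 and F3. Group means from F1 to F3 were 19.5, 28.5 and 43.7 in the vinclozolin lineage, and 56.1, 63 and 50.8 in the control lineage. Array by array, the 6 vinclozolin arrays stood in the same order for Erbb3 signal as for the beta-actin 5' to 3' ratio given above, from 13.5 at a ratio of 0.149 to 46.9 at a ratio of 0.395. The 6 control arrays did not keep that order: Erbb3 was highest, at 67.6, at their lowest ratio of 0.423 (F2 control replicate 1), and lowest, at 48.9, at 0.442 (F3 control replicate 2). How many other probe sets share the order of the vinclozolin arrays was not counted. That order describes 6 arrays in 3 groups, and the part of RNA quality in the Erbb3 difference was not tested.

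**Figure D2:**
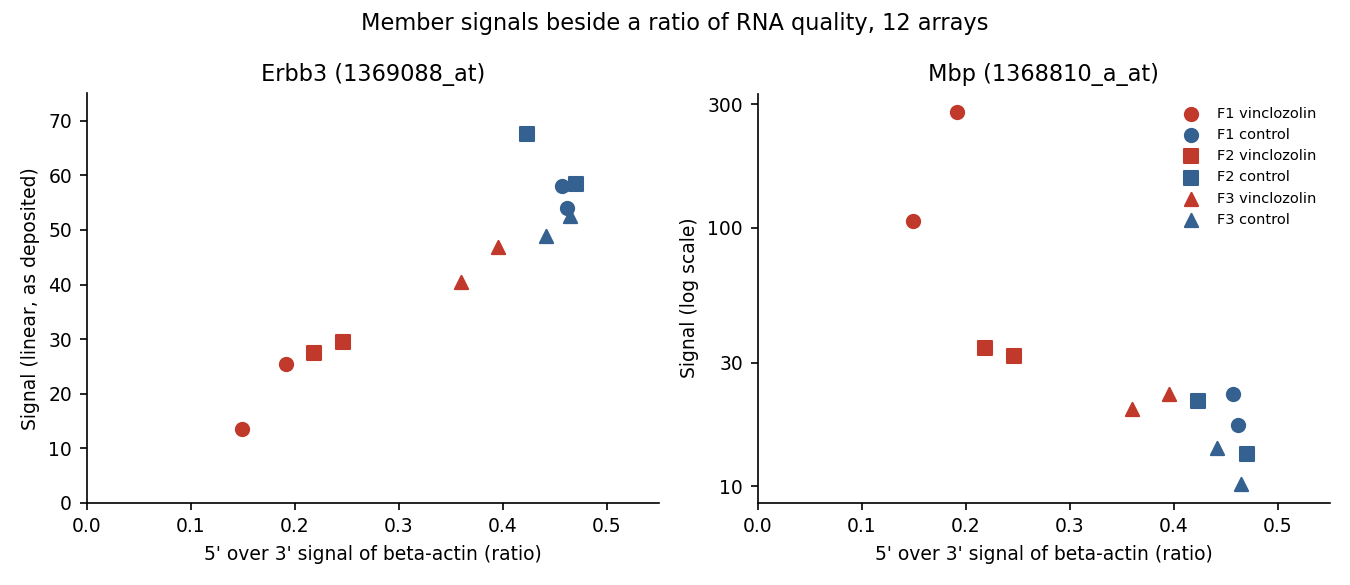
Signal of Erbb3 (left, linear axis from 0) and of Mbp 1368810_a_at (right, log axis) on each of the 12 arrays against that array's 5' to 3' ratio of beta-actin (no unit), with vinclozolin and control arrays of each generation marked apart. Vinclozolin arrays span ratios of 0.149 to 0.395 and control arrays 0.423 to 0.471, and Erbb3 is lowest, at 13.5, on the array with the lowest ratio. Among control arrays it is highest, at 67.6, on the one with the lowest ratio.

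Sox10 was near the floor of the array and was not tested. Probe set 1368439_at had 6.9 and 14.5 in F1 vinclozolin against 8.9 and 17.2 in F1 control, 10.6 and 2.3 in F2 vinclozolin against 18.0 and 23.6 in F2 control, and 3.0 and 27.2 in F3 vinclozolin against 19.1 and 14.8 in F3 control. The groups were apart only in F2, with vinclozolin lower, as were 30.4% of all tested probe sets. The log2 differences were -0.12, -0.73 and -0.20. The pools of the F3 vinclozolin group alone read 3.0 and 27.2, so a Sox10 difference was not detectable at this signal.

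Of the 5 probe sets, 3 passed the filter on low signal (2 of Mbp and that of Erbb3), and the others had mean log2 values that correspond to signals of 11.7 (Mbp 1387341_a_at) and 12.9 (Sox10), under the limit of 14.8. Among the control groups alone, a contrast that played no part in the choice of genes, limma's F test gave an adjusted p of 0.999992 for each of the 3. It called 0 of 21729 probe sets, with 517 (2.38%) at an unadjusted p under 0.05.

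The genes whose profile over the 12 arrays was most like each probe set's had no name in common between the tested Mbp probe sets. For 1368810_a_at they were Hdgfl1 (Pearson r = 0.96), Arf3 (0.95), Ccpg1 (0.95), Tmem127 (0.94) and Arhgap42 (0.93), with F1 log2 differences of 0.20 to 0.46. For 1383479_at they were Irf2bpl (0.96), Adprh (0.95), Parp1, Carmil1 and Rbm38 (0.93 each). Erbb3 was followed more closely, by Ebag9 (0.994), Exoc1 (0.993), Copz1 (0.991), Pds5a (0.989) and Pdcd4 (0.987), with F1 log2 differences of -0.60 to -1.45. These arrays share the lineage split, the RNA quality gap and 2 extreme F1 arrays, so the coefficients describe the profiles and carry no test.

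Other genes of the Schwann cell pathway were read from 5 lists: neuregulin and ERBB signalling, transcription factors, Schwann cell precursor genes, myelin structure and oligodendrocytes. Of their 78 genes, 64 had a probe set with 1 symbol and 40 passed the filter, each then read by its brightest probe set. In F1, 5 rose and 5 fell (25% of 40), where 23.1% of all tested probe sets were called, 9.41% as higher and 13.7% as lower. In F2, 2 rose and 3 fell (12.5%), where 14.3% were called, 4.7% as higher and 9.65% as lower. In F3, 1 rose and 1 fell (5%), where 3.11% were called, 1.05% as higher and 2.06% as lower. The median log2 difference of the 40 was 0.02, 0.06 and -0.01 in F1, F2 and F3, where that of all tested probe sets was -0.01 in each generation. These counts depend on the probe set, the scaling and single arrays. With the probe set of smallest p per gene, 3 were higher and 12 lower in F1, and 2 higher and 9 lower in F2. That choice can only keep or raise the number called, and its share over all genes was not counted. With arrays centred on their medians, 9 were higher and 3 lower in F1, and 7 higher and 1 lower in F2. Over all tested probe sets that centring gave 3678 higher and 2199 lower in F1, and calls moved towards higher in F2 as well. Without F1 control replicate 1, 2 genes were called in F1. The beta-actin gap between lineages runs along all of these differences, and its part in them was not tested.

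**Figure D3:**
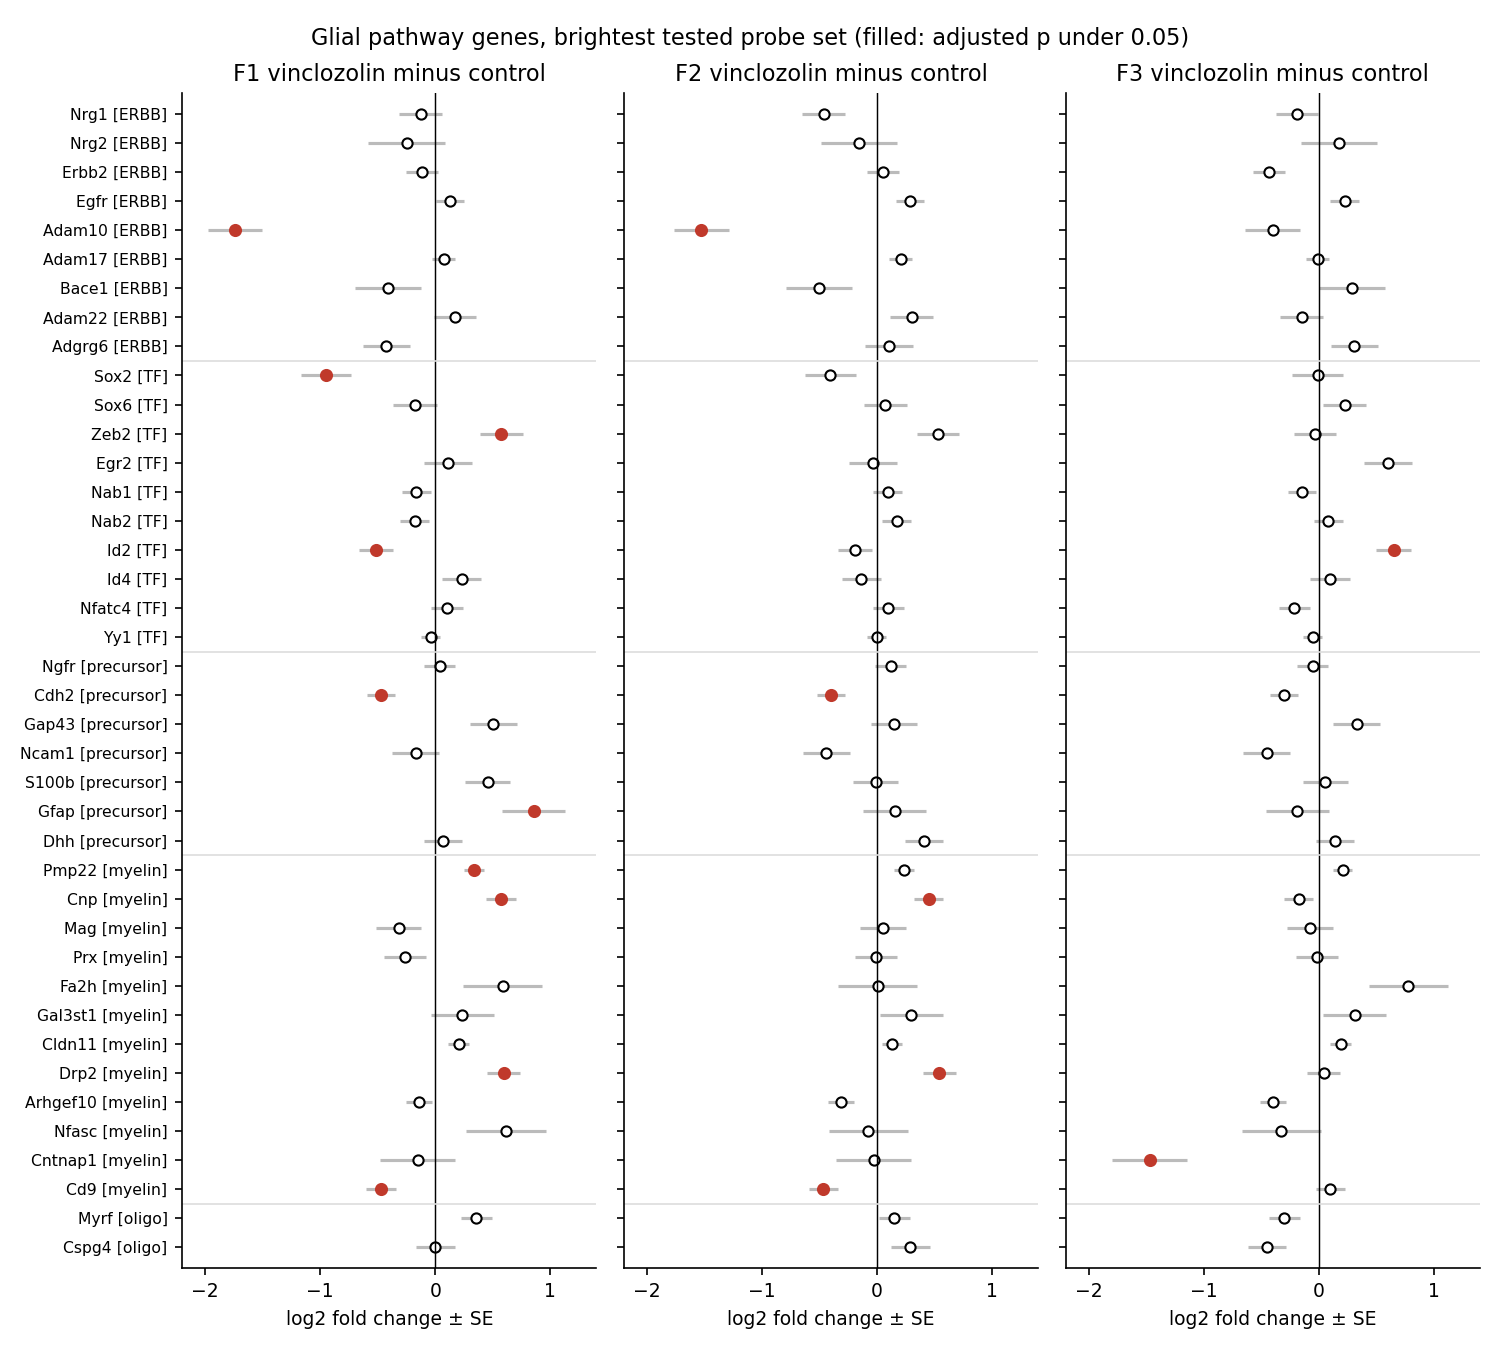
Log2 difference, vinclozolin minus control on the log2(signal + 16) scale, of the tested genes of the 5 pathway lists in the F1, F2 and F3 generations, with filled points for calls, open points for the other genes and bars for the SE. In each generation genes lie on both sides of 0, with medians of 0.02, 0.06 and -0.01.

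Among the 9 tested genes of ERBB signalling, Adam10 fell and was the only one called. ADAM10 is a membrane protease that sheds cell-surface proteins. Its brightest probe set had 45.2 and 18.8 in F1 vinclozolin against 141.7 and 135.1 in F1 control, a log2 difference of -1.74 ± 0.24 (SE, limma adjusted p = 1.3e-04), and in F2 it fell by 1.53 ± 0.24 (adjusted p = 7.7e-04). The other Adam10 probe set gave -1.41 and -1.06. In F3 limma called 0 of the 9, with 1 at an unadjusted p under 0.05: Erbb2, the partner that supplies ERBB3's kinase activity, at -0.43 ± 0.14 (adjusted p = 0.108), with 67.5 and 83.7 in F3 vinclozolin against 111.9 and 101.9 in F3 control. Egfr, the family's receptor for EGF, differed by probe set. Its brightest gave 0.13, 0.29 and 0.22 without a call, while 1370830_at gave -1.41, -1.25 and 0.06 and was called in F1 and F2.

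Of the 10 tested transcription factors, Sox2 and Id2 fell and Zeb2 rose in F1. SOX2 marks immature Schwann cells and holds back myelination. Its brightest probe set had 168.4 and 81.1 in F1 vinclozolin against 236.9 and 248.4 in F1 control (log2 difference -0.95 ± 0.22, limma adjusted p = 0.0060). Which cells of the testis gave this signal was not tested. The other tested Sox2 probe sets were called lower too: 1375153_at stood at -1.31, -1.65 and -0.82 and was called in F1 and F2, and 1381874_at stood at -1.13, -0.57 and -1.49 and was called in F1 and F3. ID2, an inhibitor of basic helix-loop-helix factors, fell by 0.51 ± 0.15 in F1 (adjusted p = 0.0212) and rose by 0.65 ± 0.15 in F3 (adjusted p = 0.0300). Its other probe set stood at -0.48, -0.34 and -0.20, so the F3 rise was seen on 1 of 2. The dependence of its difference on generation passed limma's F test (adjusted p = 0.0169), as it did for 565 probe sets (2.6%). ZEB2, a repressor that Schwann cells need to myelinate, rose by 0.57 ± 0.18 on its brightest probe set (adjusted p = 0.0354), while 1390940_at was called lower in F1 and F2, at -1.04 and -0.75. In F2 none of the 10 was called by limma, with 1 at an unadjusted p under 0.05. There Zeb2 stood at 0.53 (adjusted p = 0.069) and Sox2 at -0.41 (adjusted p = 0.242), both by their brightest probe set.

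Among 7 tested precursor genes, Gfap, an intermediate filament of immature and non-myelinating Schwann cells and of astrocytes, rose in F1 by 0.85 ± 0.27 (adjusted p = 0.0346), with 50.9 and 23.6 in vinclozolin against 6.4 and 20.2 in control. Cdh2, the N-cadherin that joins precursors to axons and also Sertoli cells to each other, fell by 0.47 ± 0.12 in F1 (adjusted p = 0.0116) and by 0.40 ± 0.12 in F2 (adjusted p = 0.0403). Its probe set 1387259_at was called lower in all 3 generations, at -0.63, -0.51 and -0.53. In F3 limma called 0 of the 7 by the brightest probe set, with 2 at an unadjusted p under 0.05; Cdh2 stood at -0.30 (adjusted p = 0.199) and Ncam1, a neural adhesion protein, at -0.45 (adjusted p = 0.253). The other tested Ncam1 probe set, 1379389_at, stood at -1.11, -0.72 and -0.50 and was called lower in F1.

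Of 12 tested myelin structure genes, 3 rose and 1 fell in F1 (33.3%, against 23.1% of all probe sets; 30% of the transcription factors were called). Drp2, a dystrophin relative of the Schwann cell membrane, rose by 0.59 ± 0.14 in F1 (adjusted p = 0.0077) and by 0.54 ± 0.14 in F2 (adjusted p = 0.0211). It had 93.7 and 73.7 in F1 vinclozolin against 49.1 and 50.3 in F1 control. In F1, 27.8% of all tested probe sets had both vinclozolin arrays above both control arrays. The other Drp2 probe sets were below the filter. In F1 1387560_a_at stood at -0.62, 1371225_at at -0.45, 1371224_a_at at -0.12 and 1388261_at at -0.01. Cnp, an enzyme that keeps cytoplasmic channels open in myelin, rose by 0.57 ± 0.13 in F1 (adjusted p = 0.0046) and by 0.45 ± 0.13 in F2 (adjusted p = 0.0284), but its other probe set stood at -0.47, -0.26 and -0.14 without a call. Pmp22, a compact myelin protein also made by many other cells, rose by 0.34 ± 0.09 in F1 (adjusted p = 0.0101) on its brightest probe set, whereas 1370504_a_at was called lower, at -1.17 in F1 and -0.89 in F2. Cd9, a tetraspanin of many membranes, fell by 0.47 ± 0.13 in both F1 and F2 (adjusted p = 0.0160 and 0.0255). In F3 Cntnap1, a protein of the axon beside the node of Ranvier, fell by 1.47 ± 0.33 (adjusted p = 0.0267), with 5.9 and 5.5 in vinclozolin against 42.1 and 46.2 in control. Its pools stood far apart within F2 control (8.6 and 32.4) and F1 vinclozolin (41.1 and 10.9), and closer in F1 control (33.3 and 22.6) and F2 vinclozolin (21.1 and 14.9). Of the 17 pathway genes with more than 1 tested probe set, 9 had opposite signs among them in F1, 7 in F2 and 7 in F3. The share of such genes over the whole array was not counted, so these numbers are only a description. At least 1 of the disagreeing probe sets was called for Cldn11, Cnp, Egfr, Pmp22 and Zeb2 in F1, for Cnp, Egfr, Nab1, Pmp22 and Zeb2 in F2, and for Id2 and Yy1 in F3. Cldn11, a tight junction protein of central myelin and of Sertoli cells, is named here after its values were seen: 1376711_at stood at 0.20, 0.13 and 0.19, and 1369609_at at -0.95, -0.43 and -0.55, called lower in F1.

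Of the oligodendrocyte genes, 2 of 10 were bright enough to test, Myrf and Cspg4, and limma called neither in any generation. Myrf, the factor that switches on central myelin genes, stood at 0.36, 0.15 and -0.30, and Cspg4, the NG2 proteoglycan of precursors and pericytes, at 0.00, 0.29 and -0.45. At an unadjusted p under 0.05 were 1 in F1, 0 in F2 and 2 in F3. The defining genes of several stages were near the floor on every array, among them Foxd3 (0.6 to 14.3) and Tfap2a (0.8 to 3.1) of the neural crest, Fabp7 (0.7 to 11.8) of precursors, Pou3f1 (5.9 to 13.4) of promyelinating Schwann cells, and Olig2 (0.6 to 18.1) and Mog (0.9 to 17.5) of oligodendrocytes. Erbb4 (0.7 to 5.9), another neuregulin receptor, was as dim.

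Of the 17 calls of pathway genes by their brightest probe set, 15 were lost when at least 1 single array was left out, and the 2 of Adam10, in F1 and F2, were kept in all 12 such fits. Gfap lost its call without F1 control replicate 1 or F1 vinclozolin replicate 1, with an adjusted p up to 0.312, and its log2 difference ranged from 0.48 to 1.23. Without F1 control replicate 1 the F1 calls of Drp2 (adjusted p = 0.0561 by limma) and Cnp (0.0735) were lost, and without F1 vinclozolin replicate 2 that of Sox2 (0.0568). The F1 calls of Pmp22 (without either F1 control array, up to 0.0841), Cdh2 (without F1 control replicate 1 or F1 vinclozolin replicate 2, up to 0.113), Cd9 (without either F1 control array or F1 vinclozolin replicate 1, up to 0.113) and Id2 (without either F1 control array or F1 vinclozolin replicate 2, up to 0.117) were lost in the same way. Zeb2 lost its call without either F1 control array, either F3 control array or F1 vinclozolin replicate 2, with an adjusted p up to 0.390. In F2, Drp2 kept its call in 9 of the 12 fits, Cd9 in 10, Cnp in 8 and Cdh2 in 3, with adjusted p up to 0.123, 0.233, 0.191 and 0.266, and leaving out F2 control replicate 2 or F2 vinclozolin replicate 2 ended all 4. Without F2 control replicate 1 the calls of Drp2, Cnp and Cdh2 were lost, and without F2 vinclozolin replicate 1 that of Cnp. Cdh2 kept its F2 call only without F1 vinclozolin replicate 1 or 2 or F2 vinclozolin replicate 1. In F3, Cntnap1 kept its call in 8 of 12 and Id2 in 5, with adjusted p up to 0.198 and 0.346, and leaving out F3 control replicate 1 or either F3 vinclozolin array ended both. That of Cntnap1 was also lost without F3 control replicate 2, and that of Id2 without any F1 or F2 control array. The share of all called probe sets that were lost in the same fits was not counted. Calls over the whole array also changed when single arrays were left out, as given at the end. These losses therefore describe single genes and are not shown to be particular to the pathway. Quantile scaling ended the F1 call of Pmp22, and centring each array on its median ended those of Id2 and Cd9 in F1 and of Cdh2 and Cd9 in F2, while 0 of the called genes changed sign.

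On the array with the highest Mbp signal some other glial and neuronal genes were at their highest too, but most of those listed were not (15 of 53 were, as counted below). The values that follow were picked after the arrays had been examined, for genes that were high there. Mobp, a myelin protein of oligodendrocytes, had 57.1 and 15.5 on F1 vinclozolin replicates 1 and 2, where the highest of the other 10 arrays had 13.8. Snap25, a protein of synaptic vesicle release in neurons, had 70.6 and 34.0, where the highest of the others had 13.7. S100b, a calcium-binding protein of Schwann cells and astrocytes, had 82.0 and 45.5 against at most 44.9, and Stmn3, a tubulin regulator of neurons, 53.3 and 22.9 against at most 19.3. Nfasc, an adhesion protein of nodes, had 65.6 and 26.0 against at most 39.1. Ptgds, a prostaglandin synthase of both Sertoli cells and the brain's coverings, had 258.3 and 84.0, and 46.3 to 83.1 elsewhere. For each of these genes replicate 1 was the highest of the 12 arrays, and replicate 2 stood above the other 10 as well for Mobp, Snap25, S100b, Stmn3 and Ptgds, by under 1 signal unit for S100b and Ptgds, but not for Nfasc. Mobp and Snap25 were below the filter on low signal. The other Mobp probe sets were dimmer on replicate 1, at 18.6 and 12.8 against at most 14.9 and 11.7 on the other 10 arrays. Among the other Nfasc probe sets, 1374164_at read 27.1 on replicate 1 against at most 18.7 on those 10. On 1380917_at, 1388041_s_at and 1393181_at replicate 1 did not exceed them. Other genes of the same lists were not raised on these arrays. Ret, by its brightest probe set, had 39.1 and 36.0 on F1 vinclozolin replicates 1 and 2, against 40.7 to 67.1 on the other 10. Mag had 46.9 and 32.8 against up to 65.7, and Nefm 150.3 and 160.8 against up to 221.8.

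**Figure D4:**
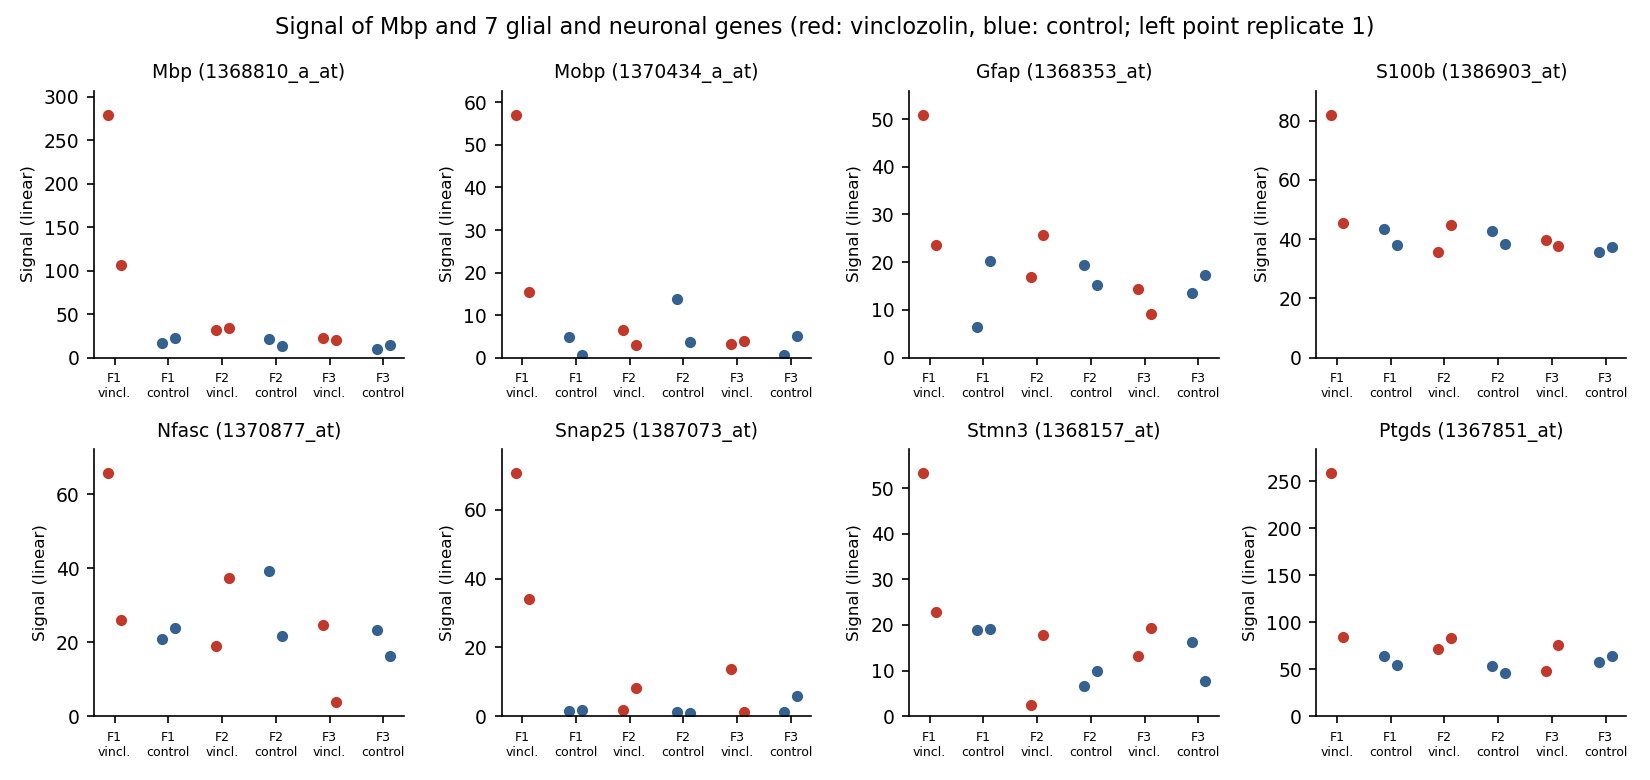
Signal (linear axis from 0) of Mbp 1368810_a_at and of 7 other genes on the 12 arrays, each point 1 array, with vinclozolin arrays left of control arrays within each generation. The 7 were picked after their values were seen, and are glial and neuronal genes but for Ptgds, which is also a gene of Sertoli cells. F1 vinclozolin replicate 1 is the highest point for Mobp (57.1), Snap25 (70.6) and S100b (82.0), as it is for Mbp (279.5).

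Counted over whole lists, the precursor, myelin, oligodendrocyte and neuronal lists had 15 of 53 genes (28.3%) at their highest on F1 vinclozolin replicate 1, where 1686 of all 14217 genes (11.9%) were. By list these were 3 of 10, 4 of 18, 4 of 10 and 4 of 15. Some were dim genes below the filter: all 4 of the oligodendrocyte list (Mobp, Mog, Nkx2-2 and Nkx6-2), Fabp7, Gjb1 and Snap25. Several led by little: Gjb1 had 22.9 against at most 22.5 outside the F1 vinclozolin group, Mog 17.5 against 15.0 and Nkx2-2 13.9 against 11.7. The ERBB list had 1 of 12, the transcription factors 2 of 14, and the Sertoli and endothelial lists 1 of 4 each, and the epithelial, melanocyte, adrenal, Leydig, germ cell and stromal lists had 0. On F1 vinclozolin replicate 2, where Mbp was also high, 7 of the 53 (13.2%) were at their highest, below the 18.7% of all genes (2657) that were. The summed signal of the 15 neuronal genes was 553.1 and 469.3 on F1 vinclozolin replicates 1 and 2 and 398.9 to 497.7 on the other 10 arrays. That of the 10 oligodendrocyte genes was 436.6 and 389.9, and 272.8 to 416.8 elsewhere, and that of the 18 myelin genes 3580.4 and 3286.2, and 2835.7 to 3420.5 elsewhere. For the 10 precursor genes it was 854.7 and 614.2, and 660.6 to 806.7 elsewhere. Replicate 1 was thus the highest array for all 4 lists, while replicate 2 was the lowest of all for precursor genes. Such sums are weighted towards bright genes and do not by themselves show a rise across a list. On replicate 1, Pmp22 gave 1458 and Cldn11 1081.7 of the myelin sum, and Myrf 211.8 of the oligodendrocyte sum. Dhh, which is also on the Sertoli list, gave 285.1 of the precursor sum. Among the 8 tested neuronal genes limma called 0 in each generation, with 2 at an unadjusted p under 0.05 in each. For melanocytes it called 0 of 4 in each generation, with 1 at an unadjusted p under 0.05 in F3. For epithelium it called 1 of 7 in F1, Pax8 at -1.07, a call lost without F1 control replicate 1 (adjusted p = 0.150), and 0 in F2 and F3, with 0 and 1 at an unadjusted p under 0.05. The part of neural tissue, and of any other cell type, in the Mbp difference was not tested.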

How the data were processed

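Total RNA of embryonic day 16 rat testes, pooled by about 10, was labelled with biotin for Affymetrix rat arrays, per the labels' protocols. The deposited values are linear signal intensity per probe set, from 0 to 9534.9, and their 2% trimmed mean lay between 125.03 and 125.04 on every array, so a global scaling preceded deposit. The summarisation software is not given in the sources used here. Depth does not apply to arrays, and 2 per group limit the precision.

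From these values, log2(signal + 16) was fitted with limma 3.58.1 in R 4.3.3 as 6 group means over all 12 arrays (lmFit, then eBayes with trend, 6 residual and 8.97 prior degrees of freedom), after leaving out 57 Affymetrix controls and the lowest 30% of probe sets (a mean log2 value below that of a signal of 14.8). Over the 21729 tested, Benjamini-Hochberg adjusted p under 0.05 was a call. The script was tested on simulated data with the F1 contrast: of 21729 probe sets, 67 changed 1.5-fold, 67 changed 2-fold and 66 changed 4-fold, and 37.3%, 79.1% and 98.5% of them were recovered. The simulation gave every group the same spread and changed far fewer probe sets than the 5026 called in F1. These shares therefore check the script and are not the recovery in the real data. An exact permutation test of 2 against 2 arrays cannot go below p = 0.333, so tests rest on the spread between RNA pools, shared by the 6 groups. The groups were not equal in it: the root mean square SD over probe sets ran from 0.130 in F3 control to 0.244 in F1 vinclozolin.

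Symbols came from the array's annotation: 20826 probe sets had 1 symbol, 436 several and 9780 none. Members and gene lists were chosen with earlier results of these data known. Named were all probe sets of the 3 genes and the 5 genes most like each probe set. From each pathway list came up to 5 called genes per direction and generation, or, with none called, the 2 of smallest p. Other probe sets of a gene so named that disagreed in direction were given, but not every one below the filter or without a call. From lists of other cell types, only genes that a result above turns on are printed. The glial and neuronal genes of the F1 arrays were picked after their values were seen. Alternatives were the pseudocount, the filter, quantile and median scaling, the probe set per gene, the generation's own arrays, a replicate block and each array left out. Replicate numbers did not pair the arrays: same-numbered arrays' deviations correlated at -0.02 in F1, -0.04 in F2 and 0.03 in F3.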

Additional observations from a re-analysis of the deposited data

Results flagged for a closer look

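The lineage difference of Id2, an inhibitor of basic helix-loop-helix factors, depended on the generation (limma F test of the interaction, adjusted p = 0.0169). Its brightest probe set had 702.8 and 731.1 in F1 vinclozolin against 1052.1 and 1009.5 in F1 control, and 1453.9 and 1464.5 in F3 vinclozolin against 740.1 and 1150.9 in F3 control. The adjusted p was 0.0501 without the filter, and it ranged from 0.0032 to 0.0926 when single arrays were left out.

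Star, which carries cholesterol into the mitochondria of Leydig cells, also depended on generation (adjusted p = 0.00816). Its brightest probe set had 722.2 and 701.1 in F1 vinclozolin against 849.6 and 828.5 in F1 control, 1043.3 and 1011.8 in F2 vinclozolin against 764.9 and 690.5 in F2 control, and 1112.8 and 973.3 in F3 vinclozolin against 731.2 and 748.4 in F3 control. The log2 differences were -0.23, 0.49 and 0.48, while its probe set 1387174_a_at gave -0.66, -0.51 and 0.12. The adjusted p reached 0.0565 without F1 control replicate 1 and 0.0503 without F1 control replicate 2. The test called 565 of 21729 probe sets (2.6%).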

How the results depend on the processing

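The log2 differences of Mbp 1368810_a_at (1.53 to 3.06 in F1), Mbp 1383479_at (-0.70 to -0.10) and Erbb3 (-1.54 to -0.53) kept their sign in F1 under all 18 alternatives, and Erbb3 ranged from -1.12 to -0.46 in F2 and from -0.24 to -0.09 in F3. The dim Sox10 and Mbp 1387341_a_at changed sign under some of them. Their low signal, and 2 pools a group, limit what can be read. Median centring moved the median log2 difference of all tested probe sets to 0.10 in F1 and 0.11 in F2, and the split of calls there became 3678 higher and 2199 lower in F1 (against 2045 and 2981) and 2594 and 1494 in F2 (against 1021 and 2097). In F3 it gave 319 higher and 323 lower (against 228 and 448). For the mean of the 3 generations it gave 5524 and 2795, and quantile scaling 3677 and 3601, against 3072 and 4173. Among pathway genes median centring called 9 higher and 3 lower in F1 and 7 higher and 1 lower, 8 in all, in F2, and the cause was not tested. Taking the probe set of smallest p per gene called 3 higher and 12 lower in F1, 11 (2 higher, 9 lower) in F2 and 5 (1 higher, 4 lower) in F3. That choice can only keep or raise the number called, and its share over all genes was not counted. A fit of only a generation's own 4 arrays, with fewer residual degrees of freedom, called 2263 probe sets in F1, with 4 pathway genes, and 2259 in F3. With no filter, 351 probe sets and 0 pathway genes were called in F3, and 313 probe sets for dependence on generation. Leaving F1 out of the mean, an alternative added after seeing the data, called 4091 probe sets and 6 pathway genes.

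Leaving out 1 array at a time gave 2498 to 7190 called probe sets and 2 to 11 pathway genes in F1, 1089 to 4888 and 1 to 10 in F2, 65 to 2175 and 0 to 5 in F3, and 5637 to 8870 and 8 to 16 for the mean. Dependence on generation ranged from 65 to 3506, and the control groups stayed at 0 calls. With the replicate number as a block, 5009 probe sets were called in F1, 3117 in F2, 713 in F3 and 7189 for the mean, with 10, 5, 2 and 14 pathway genes, 576 for dependence on generation and 0 among control groups.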
